A study of Mus musculus with 4 samples.

Results

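The cytosolic ribosomal protein genes were examined in erythroblasts, the nucleated precursors of red blood cells, from Parp-2-/- and WT mice. Members were the genes whose symbol is Rpl or Rps followed by a digit, together with Rplp0, Rplp1, Rplp2 and Rpsa. S6 kinase genes, pseudogene symbols and Rps19bp1 were left out. This gave 62 of the 19938 genes with a probe set of their own, 38 of the large and 24 of the small subunit. A gene with several probe sets was read from the brightest. The choice used symbols and mean level only, not the difference between the genotypes.

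Both groups had the C57BL/6 background and consisted of bone marrow cells sorted as positive for Ter119, an erythroid surface antigen, and CD71, the transferrin receptor. The knockout lacks Parp2, which encodes a poly(ADP-ribose) polymerase that binds broken DNA, and the WT group carries no listed alteration. There were 2 arrays of each genotype and no treatment is listed. Age, and whether animals were pooled, are not given in the sources used here. Values are normalized log2 levels, so a difference of 1 is a 2-fold change. Parp2 itself (probe set 10414497) read 8.24 and 7.65 on the WT arrays (replicates 1 and 2) and 7.11 and 6.70 on the knockout arrays, a difference of -1.04 ± 0.40 (SE, n = 2 per group) with a limma adjusted p of 0.9999.

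A cytosolic ribosome joins a small subunit, which reads the mRNA, to a large subunit, which forms the peptide bond. Each standard ribosomal protein is present once per ribosome apart from the stalk proteins P1 and P2, and their mRNAs share a pyrimidine tract at the 5′ end (the TOP motif) through which mTOR signalling controls their translation. Erythroblasts depend on a high output of ribosomes early in maturation and lose them before the reticulocyte matures. Loss of 1 copy of several of these genes causes Diamond-Blackfan anaemia, and unassembled RPL5 and RPL11 bind MDM2 and so stabilise p53.

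The start regions show what the members share in sequence. The RefSeq promoter table (GRCm38.p6; 250 bases before and 50 bases after each annotated start) held 59 promoters of 50 members. A C followed by at least 4 pyrimidines, beginning within 10 bases of the start, was found in 31 of the 59 (52.5%) and in 30.7% of all 32851 promoters in the table. The motif CCGGAAG on either strand, a core bound by ETS factors such as GABPA, was found in 33.9% of member promoters and in 8.86% of all. It was found in 25.7% of large and 45.8% of small subunit promoters. The E-box CACGTG was found in 11.9% against 7.15%, AAGATGG on either strand (a YY1 core) in 8.47% against 6.34%, and TATAAA on either strand in 10.2% against 13.6%. These are matches of letters, not measured binding.

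The windows of 8 members described below are given from 70 bases before to 15 bases after the start, with the pyrimidine tract and CCGGAAG or its reverse complement in capitals. Rpl14, Rpl34, Rps6, Rps7 and Rps10 read lower in knockout replicate 2 than on the other arrays, and Rplp2, Rpl41 and Rpl10l did not. The tract and the ETS core overlap in Rpl34, which has a second annotated start.
Rpl14 (chr9:120571447-120571531, plus strand): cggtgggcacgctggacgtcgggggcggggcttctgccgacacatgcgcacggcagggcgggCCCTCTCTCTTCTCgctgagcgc
Rpl34 (chr3:130730323-130730407, minus strand): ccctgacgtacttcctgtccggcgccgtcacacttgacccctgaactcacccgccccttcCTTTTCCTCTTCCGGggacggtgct
Rps6 (chr4:86857353-86857437, minus strand): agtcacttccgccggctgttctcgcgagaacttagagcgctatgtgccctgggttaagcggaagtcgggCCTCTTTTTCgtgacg
Rps7 (chr12:28635939-28636023, minus strand): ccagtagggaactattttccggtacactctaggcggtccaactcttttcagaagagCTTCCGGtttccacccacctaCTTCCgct
Rps10 (chr17:27635230-27635314, minus strand): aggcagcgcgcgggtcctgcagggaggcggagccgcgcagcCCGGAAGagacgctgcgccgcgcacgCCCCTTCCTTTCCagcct
Rplp2 (chr7:141447581-141447665, plus strand): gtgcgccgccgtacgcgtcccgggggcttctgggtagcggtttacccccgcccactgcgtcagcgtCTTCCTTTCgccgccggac
Rpl41 (chr10:128549154-128549238, minus strand): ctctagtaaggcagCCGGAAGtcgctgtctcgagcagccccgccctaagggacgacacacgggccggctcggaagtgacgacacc
Rpl10l (chr12:66284387-66284471, minus strand): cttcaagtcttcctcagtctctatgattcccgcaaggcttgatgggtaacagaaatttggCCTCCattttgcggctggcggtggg

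Not every ribosomal protein could be read. RefSeq lists 88 protein-coding symbols that meet the rule, and 61 of them had a probe set of their own. The remaining member is Rps4l, which RefSeq lists as a transcribed pseudogene. Of the other 27, 20 were listed only together with other genes, among them Rpl3, Rpl11, Rpl15, Rpl17, Rps23, Rps24, Rps26 and Rps27. The rest were not analysed here. Of the members, 54 were standard subunit genes and 8 were paralogs or retrogenes (Rpl3l, Rpl7l1, Rpl10l, Rpl32l, Rpl39l, Rps4l, Rps23rg1 and Rps27l). Ribosomal protein genes have many processed pseudogenes of near-identical sequence, so signal of a gene and of its copies cannot be told apart on these arrays.

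Knockout replicate 2 stood apart from the other arrays in a way that touches the results below. It had the narrowest spread of values, with an interquartile range of 1.98 over the annotated probe sets against 2.62 to 2.94 on the others. Of all 19938 genes, 106 outside the family had a mean level of 11 or more, as 41 members did. Set against each gene's own mean over the 4 arrays, these 106 had medians of +0.05 and +0.13 on the WT arrays and of +0.03 and -0.16 on the knockout arrays. The 10 erythroblast markers measured (of 12) had medians of -0.53 and +0.44 in WT and -0.18 and +0.22 in the knockout, and WT replicate 1 was the lowest array for 7 of them. Their part in the results was not tested.

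The family as a whole was high on replicate 1 of each genotype and low on replicate 2 of each. Median levels of the 62 genes, given for replicate 1 and then replicate 2, were 12.05 and 11.75 in WT, and 12.09 and 11.41 in the knockout. Relative to each gene's own mean the medians were +0.19, -0.09, +0.22 and -0.34 in the same order. The knockout arrays therefore lay on either side of both WT arrays and the groups overlapped. Knockout replicate 2 was the lowest array for 50 of 62 members, and knockout replicate 1 the highest for 40. The medians of other genes of mean level 11 or more (n = 106) were not higher on replicate 1 than on replicate 2 in WT. They were +0.05 and +0.13 in WT and +0.03 and -0.16 in the knockout. Knockout replicate 2 was the lowest array for 55.7% of these, against 90.2% of the 41 members of that level. Other genes of mean level 6 to 10 had array medians nearer to those of the family. Other genes of mean level 6 to 8 (n = 4653) had +0.19 and -0.02 in WT and +0.17 and -0.37 in the knockout. Those of level 8 to 10 (n = 2156) had +0.20 and +0.02 in WT and +0.23 and -0.39 in the knockout. Knockout replicate 2 was the lowest array for 53.4% and 60.3% of these 2 sets. After repeated quantile normalization, the medians of the family were +0.06 and -0.08 in WT and +0.08 and -0.06 in the knockout. The further drop of knockout replicate 2 below WT replicate 2 was then not seen. The 106 other genes of level 11 or more then had -0.14 and +0.17 in WT and -0.14 and +0.17 in the knockout.

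**Figure D1:**
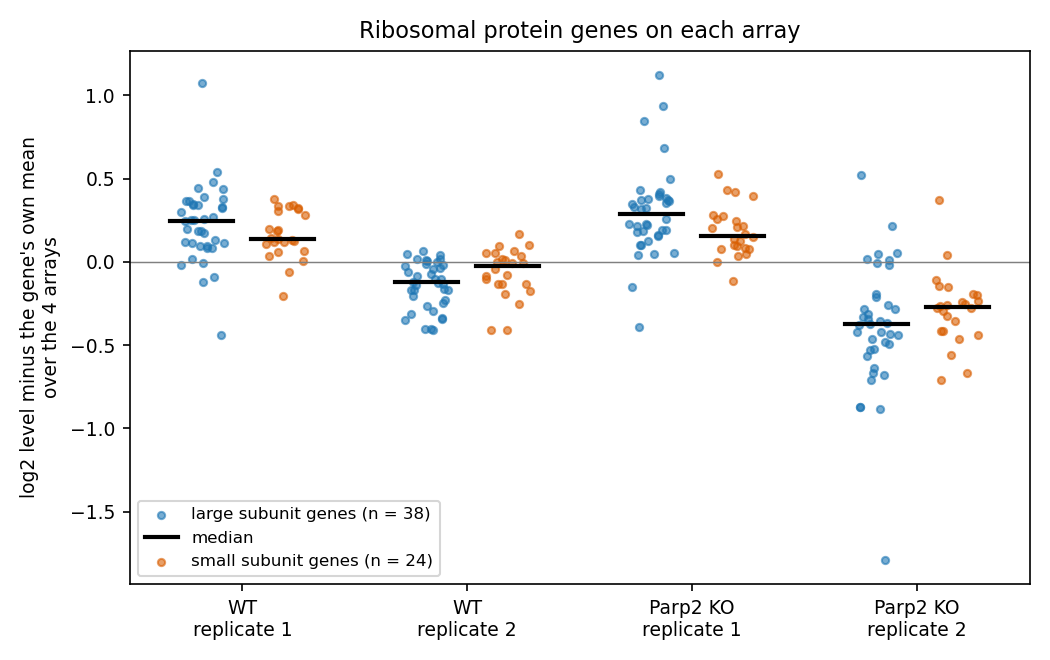
Each point is 1 ribosomal protein gene on 1 of the 4 arrays, drawn as its log2 level minus its own mean over the arrays (y axis), with large subunit genes (n = 38) and small subunit genes (n = 24) side by side and black bars at the medians. Both subunits are highest on replicate 1 of each genotype and lowest on knockout replicate 2, where the medians are -0.38 and -0.27.

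The first comparison asked whether ribosomal protein transcripts differed between knockout and WT. The mean difference was below 0 for 49 members and above 0 for 13, and its median was -0.12, against +0.08 over all 19938 genes and -0.09 over the 106 other genes of mean level 11 or more. The median of the family was -0.19 with arrays centred on their medians and +0.01 after repeated quantile normalization. Limma called 0 of the 62 members at an adjusted p under 0.05, where it called 0% of all 23410 annotated probe sets. At an unadjusted p under 0.05 the count was 0 of 62, against 2.08% of all probe sets. The lowest unadjusted p of a member was 0.299, for Rpl10l.

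Single arrays set this median. Without knockout replicate 1 it was -0.40, and without knockout replicate 2 it was +0.16. It was +0.04 without WT replicate 1 and -0.24 without WT replicate 2. Knockout replicate 1 alone lay above both WT arrays for 40 of 62 members (31.1% of all genes did, and 24.5% of the 106 other genes of mean level 11 or more). Knockout replicate 2 alone lay below both WT arrays for 50 of 62 (30% of all genes, and 57.5% of those 106).

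Both knockout arrays lay below both WT arrays for only 1 member, where 9.62% of all genes did so, and above them for 2, where 16.4% did. The member below was Rps14, a small subunit protein whose loss causes the anaemia of the 5q- syndrome in people. Rps14 (probe set 10456001) read 12.50 and 12.50 in WT and 12.44 and 12.13 in the knockout, a difference of -0.21 ± 0.36 (SE, n = 2 per group) that did not pass limma over all probe sets. Most of this gap came from knockout replicate 2, and knockout replicate 1 was 0.061 below WT replicate 1. At the second probe set of Rps14 (10498155) the groups overlapped, with a difference of -0.16. After centring or repeated quantile normalization no member lay below in both knockout arrays.

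The members above were Rpl41 and Rpl10l. Rpl41 encodes the shortest ribosomal protein, a peptide at the bridge between the subunits. It read 13.02 and 12.99 in WT and 13.07 and 13.03 in the knockout, a range of 0.080 over all 4 arrays that was the smallest in the family. Its difference of +0.04 was -0.03 with arrays centred on their medians. Rpl10l is a retrogene copy of the X-linked Rpl10 that is expressed chiefly in testis. It read 5.27 and 4.89 in WT and 5.66 and 5.34 in the knockout, +0.42 ± 0.37 (SE, n = 2 per group). Its mean level of 5.29 is near the array medians of 5.23 to 5.49, so its values may hold little signal of the mRNA. Of other genes of mean level 4 to 6, 23.1% had both knockout arrays above both WT arrays. Rpl10 itself, which takes part in the last step of large subunit maturation, read 12.56 and 11.95 in WT and 12.52 and 11.76 in the knockout.

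**Figure D2:**
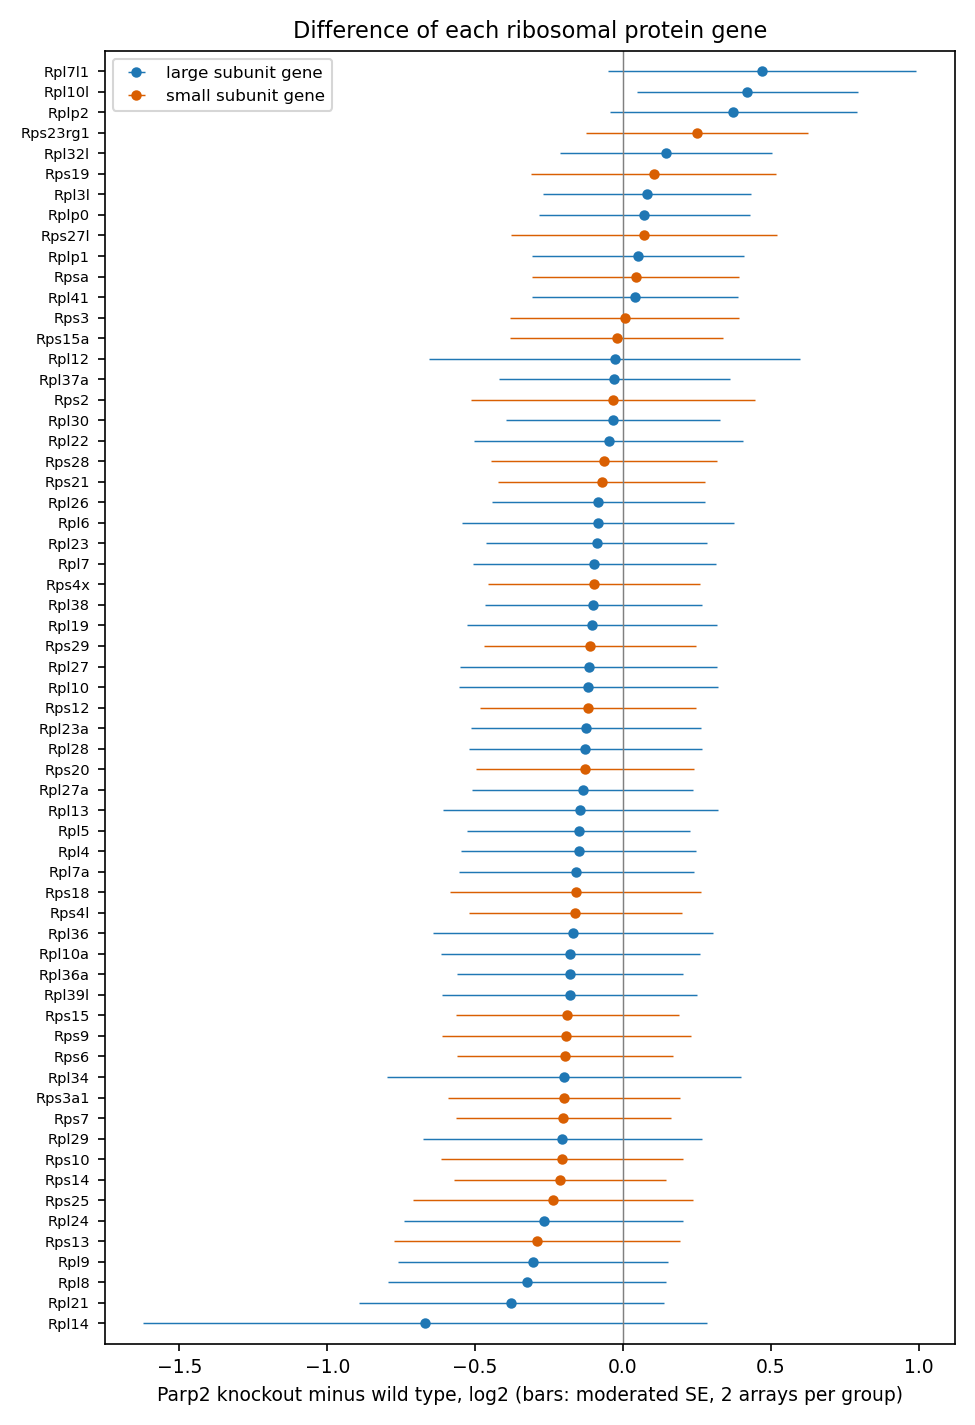
The 62 genes are ordered by their mean difference, knockout minus WT on the log2 scale (x axis), with bars of 1 moderated standard error from limma (2 arrays per group) and colours for the subunit. The differences run from -0.67 (Rpl14) to +0.47 (Rpl7l1) and all bars but that of Rpl10l cross 0.

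The precision of a single member was limited by 2 arrays per group. Standard errors ran from 0.35 to 0.95 with a median of 0.39, and only 1 member had a difference larger than its own standard error. The 95% intervals of the members had a median lower bound of -1.07 and a median upper bound of +0.85.

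The second comparison set the large against the small subunit. The median difference, knockout minus WT, was -0.12 for the 38 large subunit genes, with 30 below 0, and -0.12 for the 24 small subunit genes, with 19 below 0. Each gene was then centred on its mean and the small subunit median was subtracted from the large subunit median within each array. This contrast was +0.11 and -0.10 in WT and +0.13 and -0.10 in the knockout. Its mean was 0.0061 in WT and 0.013 in the knockout, a difference of 0.0072, while the spread between replicates was 0.16 (SD). The subunits therefore differed by less than the spread between replicates in how they stood in knockout and WT.

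The array medians were spread more widely in the large subunit, a difference that was not tested. They were +0.25 and -0.12 in WT and +0.29 and -0.38 in the knockout, and those of the small subunit were +0.14 and -0.03 in WT and +0.16 and -0.27 in the knockout. Without the paralogs and retrogenes the contrast was +0.11 and -0.10 in WT and +0.15 and -0.15 in the knockout. The 4 members with the largest spread between replicates were all large subunit genes, namely Rpl14, Rpl12, Rpl34 and Rpl36.

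Rpl14 had the lowest difference of the family and the widest range. It read 10.75 and 9.27 in WT and 10.80 and 7.88 in the knockout, a difference of -0.67 ± 0.95 (SE, n = 2 per group) with a 95% interval from -2.94 to +1.60. Knockout replicate 1 was thus the highest array for Rpl14 and knockout replicate 2 the lowest, 2.91 apart. Rpl12, a protein at the base of the stalk, read 5.87 and 5.03 in WT and 6.28 and 4.56 in the knockout, a difference of -0.03. Its mean level of 5.44 is near the array medians of 5.23 to 5.49, so its values may hold little signal of the mRNA. Rpl34 read 10.51 and 9.63 in WT and 10.65 and 9.09 in the knockout, and Rpl36 read 12.83 and 12.04 in WT and 12.70 and 11.83 in the knockout. In all 4 the groups overlapped, with replicate 2 below replicate 1 in both genotypes.

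The next lowest differences followed the same array order. Rpl21 was at -0.38, Rpl8 at -0.32, Rpl9 at -0.30, Rps13 at -0.29, Rpl24 at -0.27 and Rps25 at -0.24, each with knockout replicate 1 highest and knockout replicate 2 lowest. Rpl8, which lies at the peptidyl transferase centre, read 12.06 and 11.65 in WT and 12.07 and 10.98 in the knockout. Rps25, a small subunit protein used by viral internal ribosome entry sites, read 12.26 and 11.87 in WT and 12.38 and 11.28 in the knockout. These 6 were named after their values were seen.

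The P proteins form the stalk, which recruits the GTPase translation factors, and none of their 3 genes was lowest in knockout replicate 2. Rplp0, whose product anchors P1 and P2, read 11.54 and 11.27 in WT and 11.50 and 11.46 in the knockout (+0.07 ± 0.36, SE, n = 2 per group). Rplp1 read 13.42 and 13.13 in WT and 13.34 and 13.31 in the knockout (+0.05). Rplp2 read 8.64 and 9.14 in WT and 8.93 and 9.60 in the knockout (+0.37 ± 0.42). For all 3 the groups overlapped, and the signs of Rplp0 and Rplp1 turned when arrays were centred on their medians.

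Among small subunit genes, Rpsa too was not lowest in knockout replicate 2 at its brightest probe set. At 4 of its 5 probe sets, however, knockout replicate 2 read below WT replicate 2. RPSA, known too as the laminin receptor precursor, sits near the mRNA exit. It read 12.82 and 12.90 in WT and 12.88 and 12.92 in the knockout, a difference of +0.04 ± 0.35 (SE, n = 2 per group) that was -0.03 after centring. Rps3, at the mRNA entry and with a reported role in DNA repair, read 11.06 and 10.69 in WT and 11.12 and 10.64 in the knockout (+0.01, and -0.07 after centring). Rps6, the main substrate of the S6 kinases, read 12.23 and 12.14 in WT and 12.19 and 11.80 in the knockout (-0.20 ± 0.37).

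Genes mutated in Diamond-Blackfan anaemia, with Rps14 added, formed a list of 20, of which 10 were measured. Of these 10, 9 had differences below 0 and 1 above, with a median of -0.11 beside -0.12 for the family. Knockout replicate 2 was the lowest array for 9 of the 10. The exception was Rps19, the gene most often mutated in that disease, which read 10.01 and 9.29 in WT and 9.95 and 9.54 in the knockout (+0.10 ± 0.42, SE, n = 2 per group). Its difference was -0.10 without knockout replicate 1 and -0.26 without WT replicate 2.

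Rps7 read 11.83 and 11.96 in WT and 11.87 and 11.52 in the knockout (-0.20), and Rps10 read 12.74 and 12.27 in WT and 12.61 and 11.98 in the knockout (-0.21). For both, knockout replicate 1 lay between the WT arrays. Of the remaining list members, Rpl27 was at -0.12, Rps29 at -0.11, Rpl26 at -0.08, Rps28 at -0.07 and Rps15a at -0.02.

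Rpl5 and Rpl23 encode proteins that bind MDM2 when free. Rpl5, a part of the 5S ribonucleoprotein, read 11.50 and 11.39 in WT and 11.56 and 11.04 in the knockout, -0.15 ± 0.38 (SE, n = 2 per group). Rpl23 read 12.31 and 12.18 in WT and 12.39 and 11.92 in the knockout (-0.09). In the list of the p53 axis around them 8 of 9 genes were measured, with a median difference of -0.53, 3 above 0 and 5 below. The members of lowest p were both above 0. The gene for MDM2 read 8.26 and 8.12 in WT and 8.56 and 9.47 in the knockout (Mdm2, +0.82 ± 0.43). The related Mdm4 read 8.06 and 8.57 in WT and 8.75 and 9.06 in the knockout (+0.59). For both genes each knockout array read above both WT arrays, and neither passed limma over all probe sets.

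The 8 paralogs and retrogenes had a median difference of +0.11, with 6 above 0 and 2 below. Of all genes, 11663 of 19938 were above 0, with a median of +0.08. Rpl3l, Rpl10l, Rpl39l and Rps23rg1 had mean levels of 4 to 6. Of other genes of that level, 7565 of 10360 were above 0, with a median of +0.18. Of other genes of mean level 6 to 8, 1696 of 4653 were above 0, with a median of -0.16. Rpl7l1, a nucleolar relative of Rpl7, read 6.75 and 6.52 in WT and 7.80 and 6.40 in the knockout (+0.47 ± 0.52, SE, n = 2 per group). Knockout replicate 1 alone carried that difference, which was -0.23 without it. Rpl7 read 11.92 and 11.65 in WT and 12.07 and 11.32 in the knockout (-0.10).

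Rps4l read 6.86 and 6.88 in WT and 6.87 and 6.55 in the knockout (-0.16), and its second probe set differed by +0.25. The X-linked Rps4x read 12.06 and 12.03 in WT and 12.10 and 11.80 in the knockout (-0.10). Rps27l, a paralog of Rps27 known as a p53 target, read 10.78 and 10.03 in WT and 10.84 and 10.12 in the knockout, a difference of +0.07 ± 0.45 (SE, n = 2 per group). It read higher on replicate 1 than on replicate 2 of each genotype. Rpl3l (+0.08), Rpl32l (+0.15), Rpl39l (-0.18) and Rps23rg1 (+0.25) completed this group, and these 4 and Rps27l were named after their values were seen.

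Probe sets of the same gene gave a check on the choice of the brightest. The 62 members had 218 probe sets, of which 12 repeated the 4 values of another and are not separate measurements. Of the 39 members with several, 36 had differences of 1 sign, and the 3 with both signs were Rpl23, Rps4l and Rpsa. The 36 include Rpl41, whose 3 probe sets hold the same values. All probe sets were read on the same 4 arrays, and 196 of the 218 were below 0, so a shared sign is weak support. Rps12 had the most, 14 probe sets with differences from -0.16 to -0.07. Rpl23a had 13 from -0.12 to -0.05, and Rpl21 had 9 from -0.38 to -0.10. A further 239 probe sets listed a ribosomal protein gene together with others, and these had a median of -0.18, with 234 below 0 and 5 above and 0 past the test.

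**Figure D3:**
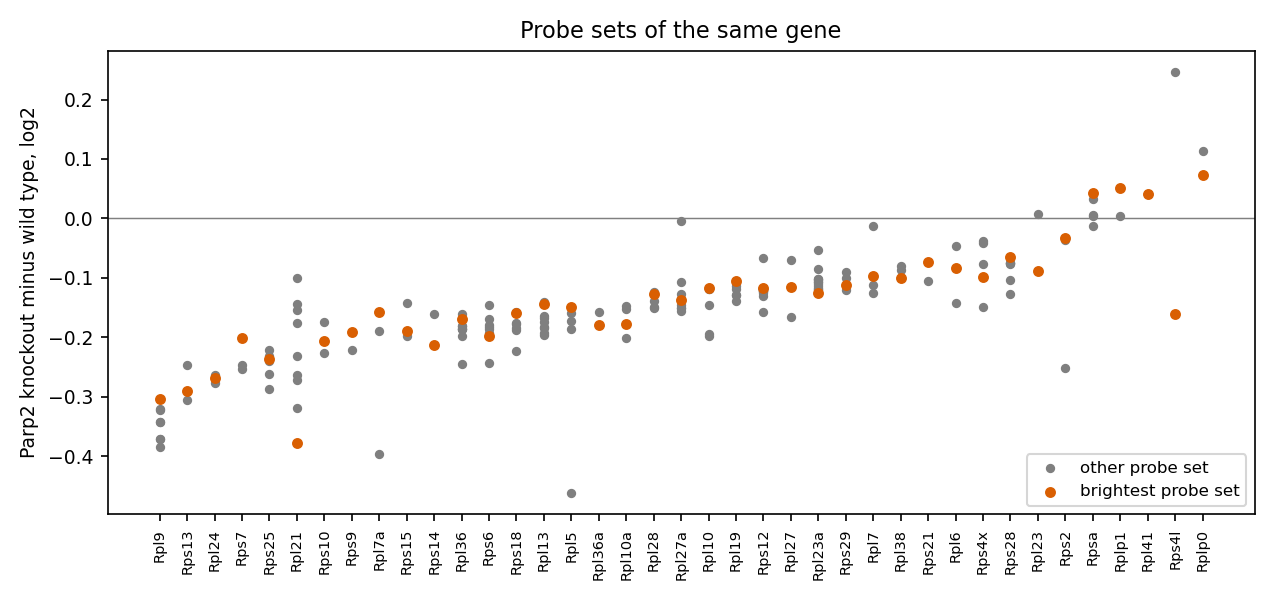
For the 39 members with several probe sets, each point is the difference of 1 probe set, knockout minus WT on the log2 scale (y axis), with the brightest in orange, and genes are ordered by their median. Probe sets of a gene share their sign in 36 of the 39.

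Genes that build or serve the ribosome were read from fixed lists. Limma called 0 members of any of these lists at an adjusted p under 0.05 over all probe sets. The medians by array of both sets of assembly factors and of the mitochondrial ribosomal proteins had the order of the cytosolic ribosomal proteins and a wider range. Small subunit assembly factors (44 of 45 measured) had medians of +0.71 and -0.40 in WT and +0.73 and -0.99 in the knockout, and large subunit assembly factors (47 of 48) had +0.53 and -0.26 in WT and +0.60 and -0.68 in the knockout. Mitochondrial ribosomal proteins (77 genes), which serve a separate ribosome, had +0.64 and -0.34 in WT and +0.68 and -0.93 in the knockout. Genes of mean level 6 to 10 outside the ribosomal protein family also had higher medians on replicate 1 than on replicate 2, over a narrower range. Those of mean level 4 to 6 (n = 10360) did not, with -0.11 and -0.08 in WT and -0.12 and +0.28 in the knockout. In WT, those of level 11 or more (n = 106) did not either, with +0.05 and +0.13. Those of mean level 6 to 8 had +0.19 and -0.02 in WT and +0.17 and -0.37 in the knockout. Those of level 8 to 10 had +0.20 and +0.02 in WT and +0.23 and -0.39 in the knockout.

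Knockout minus WT, 34 of 44 small subunit assembly factors were below 0 with a median of -0.27, and 32 of 47 large subunit factors with a median of -0.11. Of the mitochondrial ribosomal proteins 61 of 77 were below 0, with a median of -0.27. Of genes of mean level 6 to 8 outside the ribosomal protein family, 2957 of 4653 were below 0, with a median of -0.16. Of those of level 8 to 10, 1507 of 2156 were below 0, with a median of -0.17. Fibrillarin (Fbl), the rRNA methyltransferase, read 10.89 and 9.03 in WT and 10.95 and 8.33 in the knockout. Nucleolin (Ncl) read 10.84 and 10.34 in WT and 10.96 and 9.32 in the knockout. Nucleophosmin (Npm1) read 10.67 and 9.95 in WT and 10.88 and 8.47 in the knockout. In all 3 the knockout arrays lay on either side of the WT arrays.

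Members of lowest p in these lists went both ways. Pwp2 (-1.01 ± 0.54, SE, n = 2 per group) and Imp3 (-0.91), of the small subunit processome, were below WT on average. Of the large subunit factors, Rrp8 was at -0.89 ± 0.38, and Bop1, of the PeBoW complex, was at +0.89 ± 0.43. The mitochondrial members of lowest p were Mrps27 (-1.02) and Mrpl1 (-0.76). RNA polymerase I and its factors (14 of 17 measured) had a median of -0.13 with 12 below 0, beside the -0.16 of genes of mean level 6 to 8. The subunit Polr1b read 6.67 and 5.65 in WT and 5.38 and 4.60 in the knockout (-1.16 ± 0.49), and Polr1c was at -0.60.

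**Figure D4:**
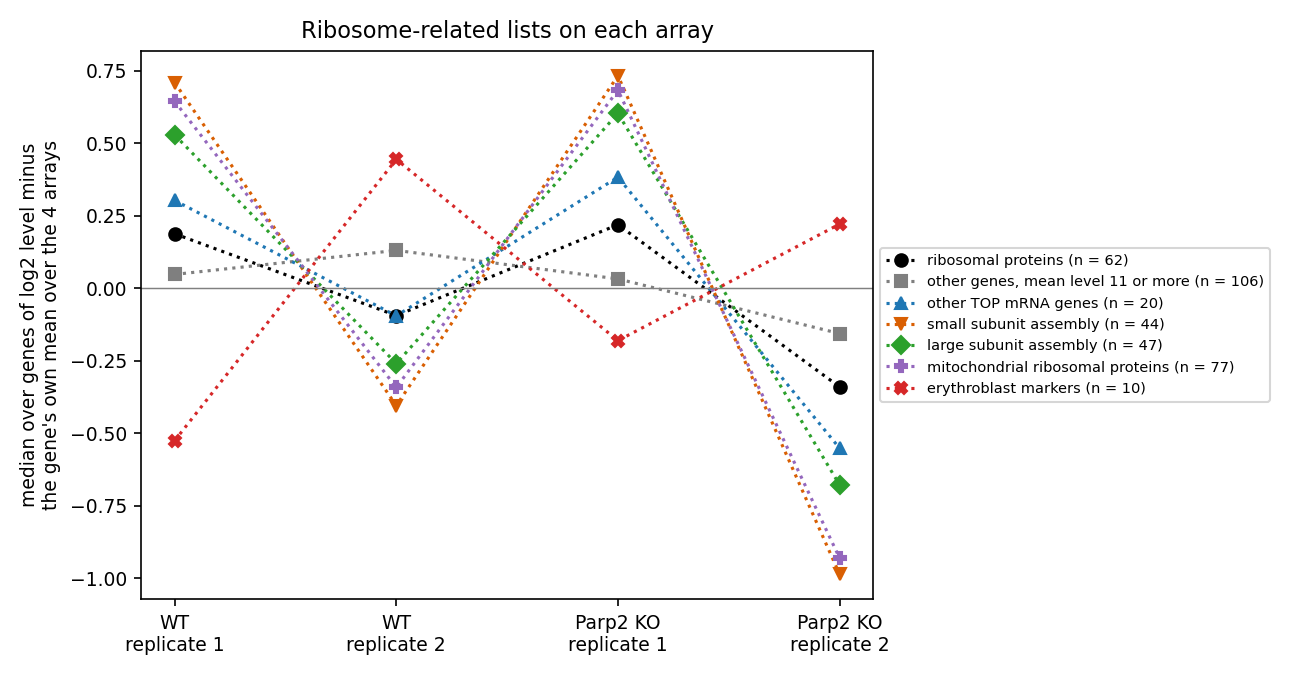
Points are medians over the genes of each list of the log2 level minus the gene's own mean (y axis) on each array, and dotted lines only link the points of a list. Ribosomal proteins (n = 62), assembly factors and mitochondrial ribosomal proteins are high on replicate 1 and low on replicate 2 of both genotypes, and erythroblast markers (n = 10) are the reverse.

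Of the other genes with TOP mRNAs, 20 of 24 were measured and 15 of these were below 0, with a median of -0.14. Of genes of mean level 10 to 11 outside the ribosomal protein family, 184 of 298 were below 0, with a median of -0.08. The medians of the TOP list are given next. Their medians by array were +0.30 and -0.10 in WT and +0.38 and -0.55 in the knockout. Fau, whose product is processed to the small subunit protein eS30, read 12.44 and 12.13 in WT and 12.26 and 11.88 in the knockout (-0.21 ± 0.37, SE, n = 2 per group). Eef1a1, the elongation factor that delivers aminoacyl-tRNA, read 11.73 and 11.61 in WT and 11.75 and 11.60 in the knockout. Vim (-1.79 ± 0.48) had the lowest p of the list, followed by Eif4a2 (-0.55). Vimentin is abundant in leukocytes and is lost from maturing red cells in mice.

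Regulators of TOP translation (20 of 24 measured) had a median of -0.18, with 14 below 0. Of genes of mean level 6 to 8 outside the ribosomal protein family, 2957 of 4653 were below 0, with a median of -0.16. Rheb, the activator of mTORC1, was at -0.95 ± 0.47 and Tia1, which binds TOP mRNAs under starvation, at -1.18 ± 0.58 (SE, n = 2 per group). Ribosome rescue and recycling genes (15 of 15) had a median of +0.01, with 8 above 0 and 7 below. Map3k20, the ZAK kinase that senses collided ribosomes, read 7.01 and 6.75 in WT and 7.57 and 7.59 in the knockout (+0.70 ± 0.36). Ltn1, a ubiquitin ligase for stalled nascent chains, was at -0.60.

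Markers of most other cell types were lower on average in the knockout, where 8275 of all 19938 genes were lower. All 14 neutrophil markers were lower in the knockout, and their summed level on the log2 scale was 15.46 and 15.22 in WT and 14.71 and 14.35 in the knockout. Of the B cell markers measured (10 of 11) 9 were lower, with summed levels of 10.77 and 11.11 in WT and 9.84 and 9.64 in the knockout. Erythroid progenitor markers were lower in 7 of 7, with 11.32 and 10.13 in WT and 10.59 and 9.18 in the knockout. These progenitor sums overlapped between the genotypes and were higher on replicate 1 than on replicate 2 of each. The neutrophil sums had the same replicate order. The monocyte and macrophage sums hardly differed by replicate, at 12.43 and 12.41 in WT and 11.64 and 11.58 in the knockout. Over the single monocyte and macrophage markers, the median of replicate 2 minus replicate 1 was +0.27 in WT and +0.28 in the knockout. Of the monocyte and macrophage markers 7 of 9 were lower, of the T and NK markers 5 of 6, of the mast cell and basophil markers 4 of 5, and of the megakaryocyte markers 1 of 5. The erythroblast markers summed to 13.67 and 14.84 in WT and 14.14 and 14.70 in the knockout, and the lowest reading of any of the 10 on any array was 9.06. Fewer cells of a type and less RNA per cell cannot be told apart in these bulk samples, and the part of cell make-up in the ribosomal protein values was not tested.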

How the data were processed

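Arrays of 4 sorted samples (2 WT, 2 Parp2 knockout; 100 ng of total RNA each, per the labels) were read from the authors' deposited table of 35511 probe sets in log2 units. RMA, limma and R 3.0.2 are named, without their roles, in the submitters' processing notes. The 4 deposited columns do not share 1 distribution. By the platform annotation, 21789 probe sets carry a single symbol, 1621 carry several and 12101 carry none. All 62 members' gene IDs were found in the RefSeq table (GRCm38.p6).

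The knockout was tested against WT by lmFit and eBayes (limma 3.58.1, R 4.3.3) on the 23410 annotated probe sets, with Benjamini-Hochberg adjustment and calls at 0.05. The fit had 2 residual and 4.77 prior degrees of freedom, and every adjusted p of a member was 0.9999. It was tested on simulated data first. A two-sided exact permutation test of 2 against 2 cannot go below 0.333, so none was used. The labels do not tie each array to its own animal. Errors and p-values thus reflect only how far these samples vary, which could be technical. Title numbers 1 and 2 mark WT and 3 and 4 the knockout; any order they stand for and the genotype cannot be told apart.

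Named members were those without overlap between groups (up to 8 per direction), the 4 of largest spread between replicate numbers, disease, MDM2-binding and stalk genes, Rpsa, Rps3, Rps6 and paralog pairs; of other lists, those of lowest p and some that describe the list. Members and lists were chosen with earlier results of these data known. Alternatives were the replicate block, each array left out, centring, repeated quantile normalization, brighter probe sets, all probe sets of the table, other moderation, array weights, the mean over probe sets, leaving out paralogs, and a threshold of 0.1.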

Additional observations from a re-analysis of the deposited data

How the results depend on the processing

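No member passed limma's adjusted p under any alternative run. The median difference of all members was -0.12 with the replicate block, -0.19 with arrays centred and +0.01 after repeated quantile normalization, and leaving out single arrays gave -0.40 to +0.16. Over all annotated probe sets limma called 274 with the replicate block and 8 with trended and robust moderation, against 0, and 0 to 62 with an array left out. Vim was among those called with the block, which changed no call of another gene named here. The labels do not say that the numbers pair the arrays, and with only 2 pairs the correlation of the replicate differences (0.468) cannot settle it. Members above WT on both knockout arrays numbered 1 with centring, 5 after quantile normalization, 1 among brighter probe sets, 1 without paralogs and 5 to 40 with an array left out, against 2. Members below numbered 0 with centring, 0 after quantile normalization, 0 with the mean of a gene's probe sets and 2 to 50 with an array left out, against 1. An arm left with 1 array is assumed to vary like the other.

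The sign turned with centring for Rpl41 (-0.033), Rplp0 (-0.00029), Rplp1 (-0.022), Rpsa (-0.030), Rps3 (-0.067), Rps27l (-0.0016) and Eef1a1 (-0.062). It turned after quantile normalization for Rps15a (0.17), Rps28 (0.048), Rpl5 (0.00017), Rpl26 (0.057), Rpl27 (0.025), Rpl23 (0.029), Rpl7 (0.052), Rpl10 (0.0065), Rps4x (0.032), Rps4l (0.011) and Rpl3l (-0.049), and with the mean of probe sets for Rps4l (0.043). With single arrays left out, the differences that turned ran as follows: Eef1a1 -0.062 to 0.084, Fbl -1.64 to 0.99, Ncl -1.28 to 0.37, Npm1 -1.84 to 0.57, Polr1c -1.34 to 0.14, Rpl10 -0.50 to 0.26, Rpl12 -0.89 to 0.83, Rpl14 -2.12 to 0.79, Rpl21 -1.06 to 0.31, Rpl23 -0.33 to 0.15, Rpl24 -0.81 to 0.28, Rpl26 -0.25 to 0.086, Rpl27 -0.55 to 0.32, Rpl32l -0.012 to 0.30, Rpl34 -0.98 to 0.58, Rpl36 -0.61 to 0.27, Rpl39l -0.54 to 0.18, Rpl5 -0.41 to 0.11, Rpl7 -0.47 to 0.28, Rpl7l1 -0.23 to 1.17, Rpl8 -0.87 to 0.22, Rpl9 -0.82 to 0.21, Rplp0 -0.060 to 0.21, Rplp1 -0.094 to 0.20, Rps10 -0.52 to 0.11, Rps13 -0.86 to 0.28, Rps15a -0.16 to 0.11, Rps19 -0.26 to 0.46, Rps25 -0.79 to 0.32, Rps27l -0.30 to 0.44, Rps28 -0.30 to 0.17, Rps29 -0.25 to 0.026, Rps3 -0.24 to 0.25, Rps4x -0.25 to 0.050. The cause was not tested. With 2 arrays per group, the number of arrays limits the precision.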
